A study of Mus musculus with 3 samples.

Results

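The globin genes of the mouse alpha and beta clusters and the erythroid regulator Klf1 were read in Ba/F3 cells. The set comprised Hba-a1, Hba-a2 and Hba-x of the alpha cluster, Hbb-bs, Hbb-bt, Hbb-bh1 and Hbb-y of the beta cluster, the transcription factor gene Klf1 and the alpha chain chaperone gene Ahsp. They were chosen by name as cluster members and erythroid factors. Of the 9 genes, 8 were measured among 55211 genes in all, and Ahsp was not analysed here. Ba/F3, a haematopoietic line from the mouse, depends on interleukin-3 (IL-3) for growth. The samples were 3 cultures grown apart from each other in RPMI medium with fetal calf serum, penicillin-streptomycin and recombinant murine IL-3, and all belong to 1 group with no treatment, genotype or time contrast. Polyadenylated RNA was sequenced in strand-marked libraries with single-end reads of 50 bases. As a model the samples are limited to this line, and no erythroid or primary cells stand beside them.

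Haemoglobin is built from alpha-type and beta-type globin chains, whose genes lie in separate clusters and are used in turn during development, embryonic genes first and adult genes later. Developing red cells make both kinds of chain in balance, with haem as the shared cofactor and AHSP binding free alpha chains. GATA1, TAL1 and KLF1 act on globin promoters and distant enhancers in erythroid cells, and KLF1 is best known for binding the CACCC box of the adult beta globin promoter.

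Reads counted to genes came to 32044889, 33880292 and 37180883 in cultures 1, 2 and 3. Levels are given as CPM (counts per gene relative to all counted reads of a culture) or, for any comparison between genes, as RPKM (CPM per kilobase of annotated exon). A single read was worth 0.0312, 0.0295 and 0.0269 CPM in cultures 1, 2 and 3, and the limit that a count of 0 allows, taken as 3 reads, was 0.0936, 0.0885 and 0.0807 CPM. Intervals and limits cover counting error only. In bulk RNA, fewer expressing cells and less RNA per cell cannot be told apart.

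The adult copies within each cluster are nearly identical, which bears on every value of the pairs. Hba-a1 (ENSMUSG00000069919, chr11:32283511-32284465, plus strand, GRCm38) and Hba-a2 (ENSMUSG00000069917, chr11:32296489-32297298, plus strand) differ in their coding exons at 1 base of 426. Counted from the A of the start codon, the change from Hba-a1 to Hba-a2 is C381T. Hbb-bs (ENSMUSG00000052305, chr7:103826534-103828096, minus strand) and Hbb-bt (ENSMUSG00000073940, chr7:103812524-103813996, minus strand) differ at 1 coding base of 441, C417T from Hbb-bs to Hbb-bt. The coding stretches below, from the GENCODE M21 transcripts, are shown because only reads over the base in capitals can assign a coding read to its copy. They lie at chr11:32284313-32284373 for Hba-a1, chr11:32297130-32297190 for Hba-a2, chr7:103826668-103826722 for Hbb-bs and chr7:103812659-103812713 for Hbb-bt.
Hba-a1: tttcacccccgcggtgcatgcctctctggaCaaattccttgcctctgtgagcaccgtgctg
Hba-a2: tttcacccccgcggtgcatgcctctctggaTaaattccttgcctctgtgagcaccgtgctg
Hbb-bs: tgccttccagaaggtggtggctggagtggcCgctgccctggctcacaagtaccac
Hbb-bt: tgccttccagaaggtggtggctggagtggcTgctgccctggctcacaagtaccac

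Hba-a1, an adult alpha globin gene, was the most abundant of the measured globins and the only one at a high level. Its level was 167, 191 and 189 CPM in cultures 1, 2 and 3, a mean of 182 ± 13.3 CPM (SD, n = 3), from 5352, 6476 and 7016 reads. Culture 1 was the lowest, and cultures 2 and 3 lay close together. Per length, Hba-a1 stood at 206, 235 and 232 RPKM, a mean of 224.5 ± 16.4 RPKM, where the median of detected genes was 8.65 RPKM. Only 152 of the 10991 genes detected in every culture had a higher mean RPKM.

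Hba-a2, the other adult alpha gene, had 5, 1 and 10 reads in cultures 1, 2 and 3, or 0.156, 0.0295 and 0.269 CPM. The value of culture 2 lay under the 3-read limit of its library, and the 16 reads of all cultures gave a pooled level of 0.155 CPM with an exact Poisson 95% interval of 0.0887 to 0.252. Of the reads counted to the adult alpha pair, Hba-a1 took 99.91%, 99.98% and 99.86%. These shares say how the authors' counting placed reads, and they do not measure the output of each copy. Of the 761 distinct 50-base windows in annotated Hba-a1 transcripts, 550 (72.3%) also occur in Hba-a2, and 550 of the 616 windows of Hba-a2 (89.3%) occur in Hba-a1. In the spliced transcripts, 211 windows belonged to Hba-a1 alone, 50 of them over the base of C381T and 161 at the 5′ end, where its annotated first exon begins further upstream. All 161 of these also occur in the sequence around the start of Hba-a2, outside its annotated exons, so they mark Hba-a1 only by annotation. Hba-a2 had 66 windows of its own, 50 over the same base and 16 at the 3′ end. Those 16 were not looked up beyond the annotated end of Hba-a1, so they too may be its own only by annotation. How the counting treated reads that match both copies is not given in the sources used here, so the split between the alpha copies is uncertain. Their summed CPM does not depend on that split, but it would be off if such reads were dropped or counted for both copies.

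**Figure D1:**
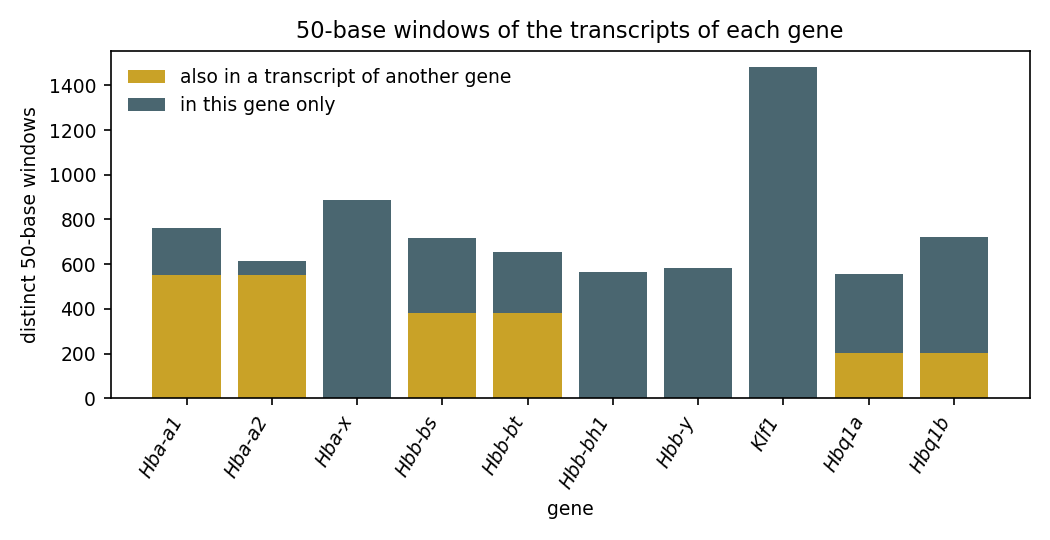
Distinct 50-base windows (bar height, number of windows) in the annotated transcripts of each globin gene and Klf1, split into those found also in a transcript of another gene and those found in 1 gene only. Hba-a1 and Hba-a2 share 550 windows and Hbb-bs and Hbb-bt share 381, while Hba-x, Hbb-bh1, Hbb-y and Klf1 share 0.

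Adult beta globin RNA was scarce. Hbb-bs had 2.03, 1.77 and 2.18 CPM in cultures 1, 2 and 3, a mean of 1.99 ± 0.206 CPM, from 206 reads. Hbb-bt had 0.874, 1.30 and 1.18 CPM, a mean of 1.12 ± 0.220 CPM, from 116 reads. Hbb-bs was above Hbb-bt in each culture, and the ranges of the genes did not overlap. Per length the ratio of Hbb-bs to Hbb-bt was 2.13, 1.25 and 1.69 in cultures 1, 2 and 3. Hbb-bs took 69.9%, 57.7% and 64.8% of the reads of the pair, with Wilson 95% intervals of 59.9 to 78.3, 48.1 to 66.7 and 56.1 to 72.6. The interval of culture 2 includes an even split. With 381 of 716 Hbb-bs windows (53.2%) and 381 of 654 Hbb-bt windows (58.3%) shared, this split is uncertain in the same way as that of the alpha copies.

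Embryonic globins gave a handful of reads. Hba-x, the embryonic alpha-type gene zeta (ENSMUSG00000055609, chr11:32276400-32278116, plus strand), had 3, 7 and 4 reads in cultures 1, 2 and 3. Hbb-y, the embryonic beta-type gene epsilon-y (ENSMUSG00000052187, chr7:103851749-103853216, minus strand), had 3, 2 and 1 reads. Hbb-bh1, the embryonic beta-type gene beta-h1 (ENSMUSG00000052217, chr7:103841637-103843164, minus strand), had 1, 1 and 0 reads. Their mean levels were 0.136, 0.0599 and 0.0202 CPM for Hba-x, Hbb-y and Hbb-bh1, and none had a 50-base window in common with another gene. Pooled over the cultures, the exact Poisson 95% intervals were 0.0742 to 0.228 CPM for Hba-x, 0.0214 to 0.127 for Hbb-y and 0.00235 to 0.0701 for Hbb-bh1. These levels were not compared between the genes, whose RPKM ranges overlapped between neighbours.

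Alpha and beta RNA were thus far apart. The adult alpha pair summed to 206, 235 and 233 RPKM in cultures 1, 2 and 3, against 3.88, 4.15 and 4.52 RPKM for the adult beta pair. The ratio of alpha to beta was 53.0, 56.7 and 51.5, a mean of 53.7 ± 2.67 (SD, n = 3). Its range over the cultures was narrow. Summed CPM do not depend on how reads are split within a pair, and their alpha to beta ratio was 57.6, 62.3 and 56.2. Summed RPKM depend on the split in part, since the copies differ in annotated length. Both ratios would shift if reads matching both copies were dropped or counted for each, since the pairs share unlike parts of their windows. All 7 measured globins of the clusters took 0.0170%, 0.0195% and 0.0193% of counted reads, or 186 ± 13.4 CPM. Hba-a1 made up 98.1%, 98.3% and 98.0% of those reads.

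Klf1 (ENSMUSG00000054191, chr8:84901928-84905291, plus strand), which encodes the Krüppel-like factor named after the erythroid lineage, stood at 14.1 CPM in culture 1, 16.1 in culture 2 and 18.6 in culture 3. Its mean was 16.3 ± 2.23 CPM, or 10.6 ± 1.46 RPKM, at the 57.1 percentile of detected genes per length. Culture 1 was the lowest and culture 3 the highest. Per length, Hba-a1 was 21.3 ± 1.82 times Klf1, and Klf1 was 4.10 times Hbb-bs by the ratio of means.

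Ordered by mean RPKM, the genes ran Hba-a1, Klf1, Hbb-bs, Hbb-bt, Hba-a2, Hba-x, Hbb-y and Hbb-bh1. The ranges over the cultures of the first 4 neighbouring pairs did not overlap, down to Hbb-bt over Hba-a2 at 1.59 against 0.227 RPKM. The other 3 neighbouring pairs, from Hba-a2 to Hbb-bh1, overlapped. With 3 cultures an exact permutation test could not reach 0.05 for any pair, so the order is given as a description.

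**Figure D2:**
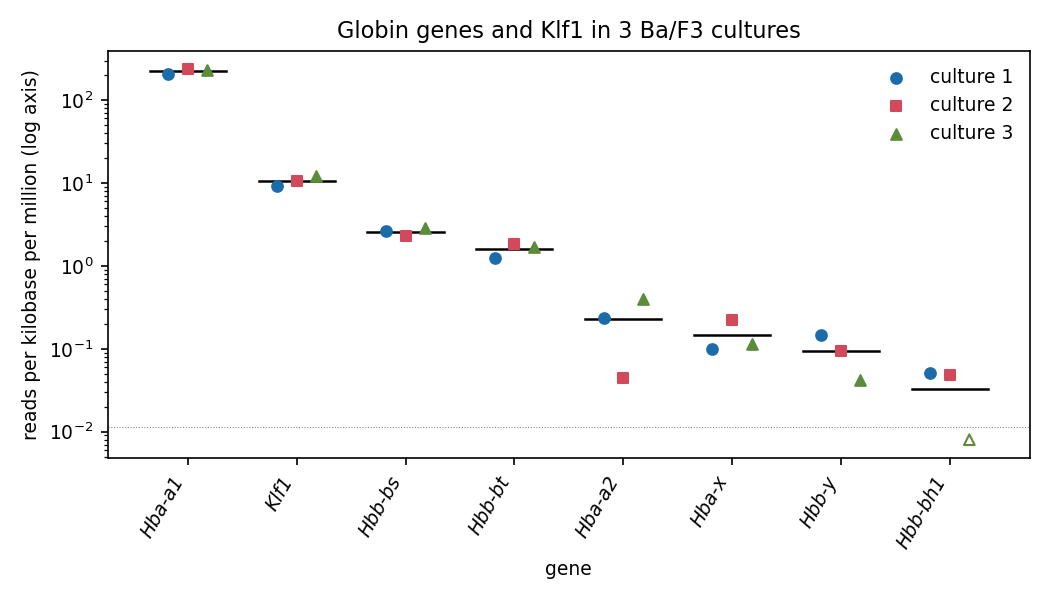
Level of each globin gene and Klf1 in the 3 Ba/F3 cultures in RPKM on a log axis, with 1 symbol per culture and a bar at the mean. Open symbols below the dotted line stand for 0 reads. Hba-a1 lies at 206 to 235 RPKM and Klf1 at 9.22 to 12.1, the adult beta genes at 1.24 to 2.84, and the other globins at 0.403 or less.

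A gene was called detected at 1 CPM or more in every culture, which held for 19.9% of all genes and 45.9% of protein-coding genes. Hba-a1, Klf1 and Hbb-bs met it, 3 of the 8 measured genes (37.5%), and 8 genes are too few to set this share apart from that of protein-coding genes. Hbb-bt missed it in culture 1 alone, at 0.874 CPM. All 8 genes had at least 1 read somewhere, where 34.7% of protein-coding genes and 58.4% of all genes had none in any culture.

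The spread between cultures was set against counting noise with a chi-square test of Poisson heterogeneity over 13141 genes, which compares these libraries and not conditions. Of all genes tested, 32.8% passed an adjusted p of 0.05, and 9.04% passed once a common dispersion was added to counting noise. Hba-a1 passed by counting noise (Benjamini-Hochberg adjusted p = 2.84e-13, chi-square test) and missed with the common dispersion (adjusted p = 0.302, same test). Without culture 1 the Hba-a1 call was lost too (chi-square adjusted p = 0.724). Klf1 passed both ways, with adjusted p = 1.82e-04 by counting noise and 0.0470 with the common dispersion (chi-square tests). Its call by counting noise was lost in the chi-square test without culture 1, with an adjusted p of 0.0998, and without culture 3, with 0.127. Hbb-bs (adjusted p = 0.626) and Hbb-bt (adjusted p = 0.397) did not pass the chi-square test, and the other 4 genes had too few reads to be tested. The highest culture was 1.14 times the lowest for Hba-a1, where genes with 0.5 to 2 times its reads had a median of 1.06, and 1.32 times for Klf1, where they had a median of 1.11. Hba-a1 stood at the 87.6 percentile of 2326 genes of like depth, and Klf1 at the 89.6 percentile of 2980.

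Over the 3 cultures, the genes of at least 10 CPM with the most similar deviations of log2(CPM + 1) from their mean to Hba-a1 were Pbrm1, Myl6b and Ranbp2, at Euclidean distances of 0.0020, 0.0053 and 0.0064. Those nearest to Klf1 were Siva1, Lzts2 and Prr12, at 0.0079, 0.025 and 0.026. Among 8828 genes compared, 170 lay within 0.05 of Hba-a1 and 39 within 0.05 of Klf1, so with 3 cultures many genes share such a pattern.

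The globin neighbourhoods on the chromosomes differed in which genes gave RNA. Within 100 kb of the alpha genes, 5 of 12 annotated genes were detected, where 19.9% of all genes and 45.9% of protein-coding genes were. Besides Hba-a1 these were Nprl3, whose introns hold the main alpha globin enhancers, at 37.1 CPM, Snrnp25, a minor spliceosome protein gene, at 21.6, the DNA glycosylase gene Mpg at 17.8, and the theta globin gene Hbq1b. Rhbdf1, which encodes an inactive rhomboid protein (0.0683 CPM), and the IL-9 receptor gene Il9r (0.0584 CPM), both named after their values were seen, flank the cluster on the same side as Nprl3 and were near 0. In the beta neighbourhood Hbb-bs was the only detected gene of 23, and 18 had no read, as did 58.4% of all genes and 34.7% of protein-coding genes. Most of these were olfactory receptor genes, all 13 of which had 0 reads there. The share of such genes without reads elsewhere in the genome was not computed.

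**Figure D3:**
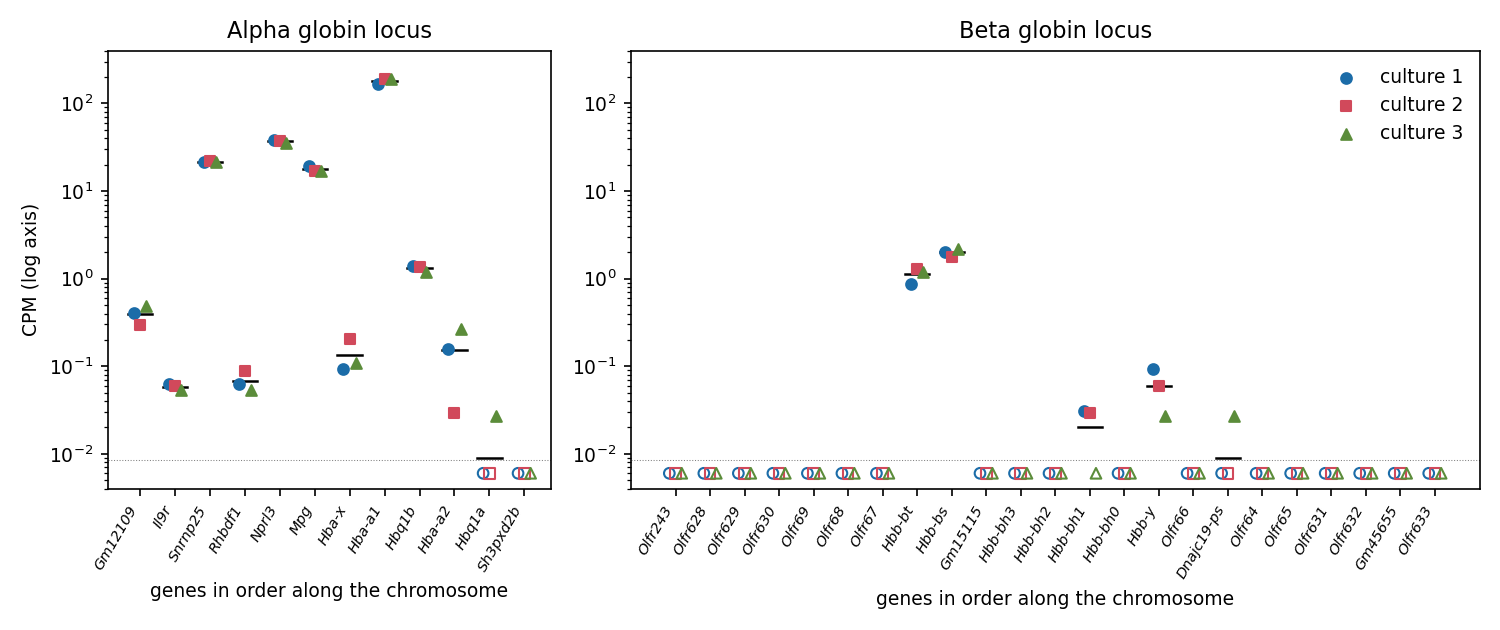
CPM on a log axis for every annotated gene within 100 kb of the alpha cluster (left) and of the beta cluster (right), in chromosome order, with 1 symbol per culture and a bar at the mean. Open symbols below the dotted line stand for 0 reads. In the alpha neighbourhood 5 of 12 genes reach 1 CPM in every culture, and in the beta neighbourhood 1 of 23.

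Of the other globin genes, 1 of 8 measured was detected, where 19.9% of all genes and 45.9% of protein-coding genes were. The list is too short to set its share apart from these. Hbq1b, an alpha-cluster gene of unclear function, had 1.40, 1.36 and 1.18 CPM in cultures 1, 2 and 3. Its near copy Hbq1a had 1 read in all, and the copies share 204 of the 50-base windows. Neuroglobin (Ngb) averaged 0.0775 CPM and cytoglobin (Cygb) had 1 read, while myoglobin (Mb), Hbb-bh0, Hbb-bh2 and Hbb-bh3 had none. Hbb-b1 and Hbb-b2, adult beta genes of another haplotype, were not analysed here. Which beta haplotype the Ba/F3 line carries was not tested, so the adult beta values stand for reads counted to Hbb-bs and Hbb-bt of the reference.

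Promoter letters were read from the RefSeq promoter table (GRCm38.p6), over the 250 bases before the RefSeq start of each gene. The GENCODE start can lie further upstream, so some bases read as promoter lie inside the GENCODE gene. Around the CCAAT box this held for Hba-a1 and Hbb-bs, in part for Hbb-bt, and not for Klf1. For Hba-a1, first-exon bases upstream of its RefSeq start also count in its windows and RPKM. The promoter table holds 6 of the globins and Klf1. Both strands were searched for a GATA site (the letters GATA with an A or T before them and an A or G after them) and a CACCC box with the letters CCNCNCCC. They were also searched for a CCAAT box under the letters of its name. The TATA-like box was either ATATAA or a second form that occurred once among these genes, ATAAAA in Hbb-y. Over 32851 promoters, 26.5% held the GATA letters, 45.9% the CACCC letters, 33.8% the CCAAT letters and 22.4% the TATA-like letters. The stretches of 30 bases below end 3 bases after the CCAAT box and are shown because they set the high alpha gene, the low beta genes and Klf1 side by side, with matches in capitals. They lie at chr11:32283562-32283591, plus strand, for Hba-a1, chr7:103827997-103828026, minus strand, for Hbb-bs, chr7:103813991-103814020, minus strand, for Hbb-bt and chr8:84901896-84901925, plus strand, for Klf1.
Hba-a1: gggtagagcaagcacaaaccagCCAATgag
Hbb-bs: tagagCCACACCCtggtaagggCCAATctg
Hbb-bt: cagggtaacaccctggcATTGGCCAATctg
Klf1: tgggtcTTATCAgggaagacagCCAATcag

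The promoters of Hba-a1 and Hba-a2 were identical over all 297 bases compared at an offset of 3 bases, so these letters do not tell the alpha copies apart. Hba-a1 had a GATA match at -183, a CCAAT box at -88 and a TATA-like box at -28, counted from the RefSeq start, and no match to the CACCC letters. Hbb-bs had a CACCC match at -93 beside a CCAAT box at -76, a TATA-like box at -30 and a GATA match at -210. Hbb-bt had a CACCC match at -107, outside the stretch shown, and 3 CCAAT matches, of which the pair at -80 and -75 adjoin on opposite strands. Over their aligned bases the Hbb-bs and Hbb-bt promoters were 77.4% identical. Hba-x had CACCC, GATA and TATA-like matches without a CCAAT box, and Hbb-y had GATA, CCAAT and TATA-like (ATAAAA) matches without a CACCC box. Klf1 had a GATA match at -80, read as TTATCA on this strand, and a CCAAT box at -64. These matches describe letters only; Hba-a1, with 182 CPM, and Hbb-y, with 6 reads, held the same 3 kinds of match.

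The lists that follow share some genes and are described by counts. Each count is to be read beside all protein-coding genes, of which 45.9% were detected and 34.7% had no read. Transcription factors of the erythroid program were widely present, 17 of 18 detected, with a median of 27.0 RPKM against 8.65 RPKM over all detected genes. Gata2, the GATA factor of progenitors, stood at 114 ± 4.11 RPKM, the stem cell leukaemia factor gene Tal1 at 81.4 ± 2.58 and the corepressor gene Cbfa2t3 at 57.4 ± 2.22. Gata1, the GATA factor of red cells and megakaryocytes, had 67.5, 66.7 and 65.9 CPM in cultures 1, 2 and 3, or 27.4 ± 0.329 RPKM. Gata2 was 4.17 ± 0.200 times Gata1 per length, and Gata1 was 2.61 ± 0.388 times Klf1. The lowest of the list by mean CPM were Mafk, a small Maf partner of NF-E2, at 6.72 RPKM, the LIM-domain bridging factor gene Lmo2 at 2.06, and Klf3, a repressor related to Klf1, at 0.0386.

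Regulators of the switch from embryonic or fetal to adult globin fell into present and absent genes. Of 16, 11 were detected and the other 5 had no read, where 45.9% of protein-coding genes were detected and 34.7% had no read. The chromatin remodeller gene Chd4 stood at 65.9 ± 5.22 RPKM, the DNA methyltransferase gene Dnmt1 at 58.4 ± 2.42 and Myb, a progenitor transcription factor, at 34.9 ± 1.36. Bcl11a, a repressor of embryonic and fetal globin genes, had 0 reads in every culture, as did the RNA-binding protein genes Igf2bp1, Igf2bp3 and Lin28b and the nuclear receptor gene Nr2f2. Sox6, a partner of BCL11A that was named after its values were seen, was present at 178, 178 and 170 CPM in cultures 1, 2 and 3.

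Haem genes were detected in 17 of 18 cases, with a median of 13.5 RPKM. Alas1, the first enzyme of haem synthesis in all tissues, stood at 29.2 ± 0.545 RPKM, while its erythroid counterpart Alas2 had no read. The mitochondrial iron importer gene Slc25a37 (mitoferrin-1) stood at 21.6 ± 4.17 RPKM and the coproporphyrinogen oxidase gene Cpox at 19.0 ± 0.236. Slc25a38, the mitochondrial glycine carrier gene, and the uroporphyrinogen synthase gene Uros had the lowest mean CPM of those with any read, and stood at 5.54 and 2.64 RPKM. Ppox, the oxidase after Cpox, was named after its values were seen, at 57.4, 31.5 and 27.6 CPM in cultures 1, 2 and 3. Culture 1 stood apart in it, and the chi-square test with common dispersion gave an adjusted p of 3.57e-30.

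**Figure D4:**
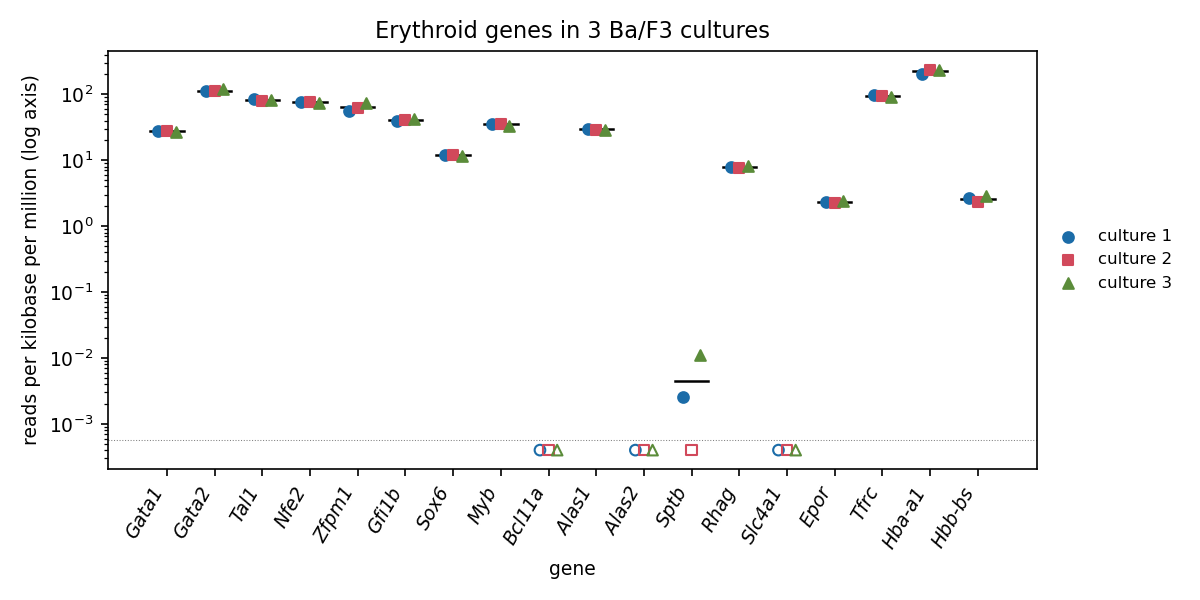
RPKM on a log axis of 18 erythroid genes, picked after their values were seen, in the 3 Ba/F3 cultures, with 1 symbol per culture and a bar at the mean. Open symbols below the dotted line stand for 0 reads. Gata2, Tal1, Tfrc and Hba-a1 lie between 81.4 and 224.5 RPKM on average, while Bcl11a, Alas2 and Slc4a1 have no read.

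Genes of the red cell surface and skeleton were detected in 9 of 18 cases (50%), near the 45.9% of protein-coding genes, with a median of 1.12 RPKM. The glycophorin C gene Gypc stood at 56.7 ± 1.45 RPKM and the protein 4.1 gene Epb41 at 15.9 ± 0.682. Sptb, which encodes a spectrin of the membrane skeleton, had 0.0312, 0 and 0.135 CPM in cultures 1, 2 and 3 and was named after its values were seen. The water channel gene Aqp1, the Kell antigen gene Kel and the band 3 gene Slc4a1 had 0 reads.

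Among late enzymes and remodelling factors 8 of 13 were detected (61.5%, against 45.9% of protein-coding genes). The mitophagy receptor gene Bnip3l stood at 77.9 ± 2.59 RPKM, catalase (Cat) at 74.8 ± 2.15 and the nuclear exporter gene Xpo7 at 9.52 ± 0.309, whereas Car1 and Car2, the carbonic anhydrase genes, and Trim10, a ubiquitin ligase gene, had no read. Of the erythropoietin and transferrin signalling genes, 9 of 10 were detected. The transferrin receptor gene Tfrc stood at 94.4 ± 2.53 RPKM, the phosphatase gene Ptpn6 at 66.1 ± 2.18 and the kinase gene Jak2 at 46.8 ± 1.75. The erythropoietin receptor gene Epor was low at 4.62, 4.49 and 4.76 CPM in cultures 1, 2 and 3, and Kit, the stem cell factor receptor gene, averaged 0.0194 CPM.

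Described targets of KLF1 were detected in 6 of 13 cases (46.2%), a share near that of all protein-coding genes. Tfr2, the second transferrin receptor gene, and Cdkn2c, a cell cycle inhibitor gene, led at 17.8 ± 0.875 and 18.6 ± 0.834 RPKM, with the cell cycle factor gene E2f2 at 6.60 ± 0.315, and 4 of the 13 had no read, Alas2, Bcl11a, Kel and Slc4a1. Of the Krüppel-like factor genes themselves, 9 of 17 were detected (52.9%), also near that share. By mean RPKM Klf10 (21.8 ± 1.48), Klf13 (16.4 ± 0.425) and Klf7 (8.69 ± 0.371) lay on either side of Klf1, and 6 genes, Klf2, Klf4, Klf5, Klf12, Klf14 and Klf15, had no read. Of the haemoglobin and haem scavenging genes, the scavenger receptor gene Lrp1 (0.432 RPKM) and the haptoglobin gene Hp (1.66 RPKM) were the 2 detected of 4, and the receptor gene Cd163 and the haemopexin gene Hpx averaged 0.0197 and 0.00984 CPM.

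**Figure D5:**
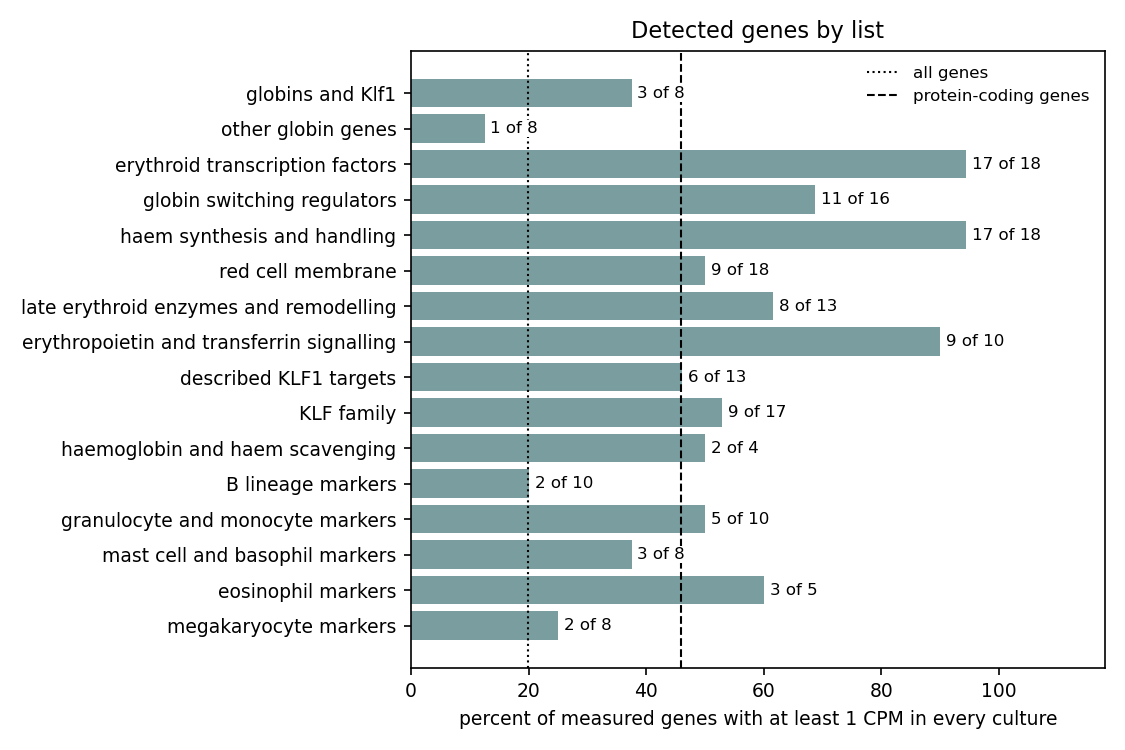
Share of the measured genes of each list with at least 1 CPM in every culture (bars, percent), with the number of genes beside each bar. The dotted line marks the share over all genes, 19.9%, and the dashed line that over protein-coding genes, 45.9%. The erythroid transcription factors and haem genes reach 94.4%, and the globins with Klf1 37.5%.

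Of the 9 measured markers that define erythroid cells, 5 were detected, Hba-a1, Hbb-bs, Klf1, Epor and Gata1, while 2 had no read, Slc4a1 among them. Detection held for 45.9% of protein-coding genes, and 9 markers are too few to set their share apart from it. Some markers of other blood lineages were detected beside them, in lists that are short as well. Of 5 eosinophil markers, 3 were detected, with a summed level of 1938 to 2020 CPM over the cultures, led by Epx, the eosinophil peroxidase gene, at 646 ± 14.2 RPKM and the major basic protein gene Prg2 at 245 ± 2.43, while the IL-5 receptor gene Il5ra had 1 read in all and the ribonuclease gene Ear1 had 0. Of 10 granulocyte and monocyte markers, 5 were detected, summing to 433 to 535 CPM. Among them were Cebpe at 100 ± 18.9 RPKM, the primary granule protease gene Prtn3 at 81.1 ± 9.46 and Spi1 at 50.4 ± 4.62. Cebpa and the protease gene Ctsg were at 0. Of 8 megakaryocyte markers, 2 were detected, summing to 532 to 610 CPM, nearly all from the integrin gene Itga2b at 105 ± 7.35 RPKM, while the platelet factor gene Pf4 averaged 0.00984 CPM. Mast cell and basophil markers (3 of 8, summing to 17.7 to 19.1 CPM) and B lineage markers (2 of 10, summing to 20.1 to 22.2 CPM) were lower. Those detected were Mitf (mean 9.14 CPM), Ms4a2 (5.46) and Cma1 (3.12) of the former, and Cd79b (19.5) and Cd79a (1.75) of the latter. Fcer1a, Mcpt8, Tpsb2, Ebf1 and Rag1 were among those at 0. The part of any other cell type in the globin values was not tested.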

How the data were processed

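RNA-seq of 3 Ba/F3 cultures was analysed. Per the series' design text and the submitters' processing notes, reads were aligned to GRCm38 with HISAT2 and counted with an in-house program; not given in the sources used here are versions, the annotation release, the strand setting and the treatment of reads with several matches. The authors deposited log2 values, scaled as log2(reads per 10000000 + 1): with the log undone, a column adds up to 10000000, and all values came out as whole reads within 0.01. The table has 55486 rows. Of 23001 rows with a read, 0 had an identifier and a symbol naming the same gene. Cultures 1 and 2 follow the identifiers and culture 3 the symbols, so culture 3 was matched through GENCODE M21 by coordinates (54907 rows) or symbol (333 rows), and 246 rows stayed unmatched. Over 134 genes with at least 50000 reads in cultures 1 and 2 together, culture 3 then differed from culture 1 by a median of 0.068 (log2), against 0.55 on the rows as deposited and 0.051 between cultures 2 and 1. The authors' average column mixes genes and was not used.

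CPM were scaled to the reads of each culture, and RPKM used the union of annotated exons. For Hba-a1 this union includes first-exon bases upstream of its RefSeq start. Its RPKM, and ratios that use them, therefore rest on that annotated start. Genes with a mean of at least 10 reads were tested for heterogeneity between cultures, with Benjamini-Hochberg adjustment and a threshold of 0.05. The alternative adds a common dispersion of 0.00162, a coefficient of variation of 4.02%. P-values measure only the spread between these cultures, of 1 library each. Windows were searched in 141767 transcripts on both strands. The genes and lists were chosen with earlier results of these data known. Named were the 9 genes, the other globins, the 3 highest and up to 3 lowest by mean CPM of each list, detected coding neighbours within 100 kb and the 3 genes nearest in pattern to Hba-a1 and to Klf1; genes outside the rule are said to be so where named, apart from members of a list that had no read and the defining markers of each cell type. Some listed genes are counted in their lists and are not reported here by name. Alternatives covered scaling, matching, detection limits, read minimums, lengths, pseudocounts and leaving out each culture. Python 3.11.15, numpy 2.4.6, pandas 2.3.3, scipy 1.17.1, biopython 1.88 and matplotlib 3.10.9 were used.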

Additional observations from a re-analysis of the deposited data

How the results depend on the processing

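Mean CPM of each globin and of Klf1 moved by less than 1 SD under median-of-ratios and upper-quartile scaling and on leaving out each culture. They also did so on the rows as deposited, but there the cultures do not follow the same genes. A mean on those rows combines reads of different genes and cannot test the level of a named gene. The order of neighbours kept 4 separated pairs with the length of the longest transcript, and 9538 to 11796 genes were detected under other limits, against 10991. The median shift of detected genes under the other scalings was at most 0.03 (log2) in size. The alpha to beta ratio of 53.7 was 58.7 without division by length and 52.3 to 54.9 on leaving out each culture. The ratio was 58.3 on the rows as deposited, which mix genes and so do not test it. As a difference of log2(RPKM + 1) it was 5.44, with 5.71 and 4.64 at pseudocounts of 0.1 and 5. Genes that differed between cultures numbered 4304, 1188 with a common dispersion and 1460 to 3900 on leaving out a culture, lowest without culture 1. The cause was not tested. The row of Klf1 as deposited had an adjusted p of 0.0882 (chi-square test). That row also combines genes, so this value does not test the Klf1 call. The share of Hba-a1 windows found in Hba-a2 was 67.9% at 75 bases and 73.9% at 40 bases. Windows with a mismatch were not run. No paired analysis was possible because all samples form 1 group. Depth limits the 4 lowest globins, which had 2 to 16 reads in all, and the near-identical copies limit the split of the alpha pair and of the beta pair.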
